A study of Mus musculus with 24 samples.

Results

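INCB039110 is an inhibitor selective for the kinase JAK1, and the comparison described here is of skin from C3H/HeJ mice with alopecia areata (AA) treated with it (JAK1i, 3 libraries) or with vehicle (3 libraries). These 6 libraries were chosen by their names in the header of the raw count table, out of 24 libraries in all, and the libraries taken before treatment were not part of either group. All mice were C3H/HeJ with AA, an autoimmune loss of hair that the study passed on by grafts of alopecic skin or by transfer of T cells. The paper describes the sequenced skin as taken before and after systemic treatment, for which its methods give an implanted pump at inhibitor-specific doses. The methods also describe an ointment for other mice. The sample labels describe the ointment and call the vehicle group untreated, and the groups are taken here as vehicle and JAK1i. Neither source says that the 3 libraries of a group came from separate mice. Nor does either give the age of the mice or the place on the body where the skin was taken. The p-values therefore measure only the spread between libraries. That spread was estimated over all 24 libraries in 7 groups, not over these 6 alone.

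JAK1 is a tyrosine kinase bound to the inner part of many cytokine receptors. It works with JAK3 at receptors that share the common γ chain (γc), through which IL-2, IL-7, IL-15 and IL-21 reach T cells, with JAK2 at the receptor for IFN-γ, and with TYK2 at the receptors for type I interferons and for IL-10. The kinases phosphorylate STAT proteins, which enter the nucleus and switch on target genes. In AA, CD8+ T cells that release IFN-γ gather around the hair follicle, and the follicle in turn displays MHC molecules and chemokines that it normally holds at low levels.

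The total count was 20676621 to 21858670 in the vehicle libraries, 21028257 and 21396223 in JAK1i replicates 1 and 2, and 17872294 in JAK1i replicate 3. The 3 JAK1i libraries were not alike. Across genes, log2 CPM (counts in a library of fixed size, scaled to the composition of the library) differed between replicates 1 and 2 by 0.411 as a root mean square, and between replicate 3 and these by 0.959 and 0.923. No pair of libraries of a group agreed within sampling noise, the closest being vehicle replicates 2 and 3 with a chi-square of 6.49 per gene. The value was 220 and 193 between JAK1i replicate 3 and replicates 1 and 2, and at most 17.2 for the other pairs. A second table from the same study, with scores of 7 genes used for an AA index, carries the same library names. In it 18 of 24 columns match the counts of the library so named, and 6 match another. The values of the count library JAK1i #2 stand there under the name JAK2i #1, and those of JAK1i #3 under the name JAK3i #1, whereas JAK1i #1 has its name in both. Across genes, log2 CPM of JAK1i replicate 2 had a Pearson r of 0.99 with replicate 1 and of 0.832 to 0.847 with the 3 libraries named JAK2i, which had 0.987 to 0.993 with vehicle. JAK1i replicate 3 had 0.947 and 0.951 with replicates 1 and 2, and 0.929 to 0.94 with the 3 libraries named JAK3i. Replicates 1 and 2 themselves had 0.933 to 0.948 with the libraries named JAK3i. Replicate 2 thus stood with replicate 1 and apart from JAK2i. Replicate 3 had similar values with JAK1i and JAK3i, and by r it was no nearer to JAK3i than replicates 1 and 2 were. Results are given with replicate 3 beside replicates 1 and 2, and, for JAK pathway genes whose call changes, with replicate 1 alone, where a lone library is assumed to vary like the other groups. Cd4, the helper T cell coreceptor, was at 5.48, 4.58 and 4.43 CPM in JAK1i replicates 1 to 3, against a mean of 102 CPM in the 3 libraries named JAK3i.

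The skin markers were present in all 6 libraries. Krt5, a keratin of basal keratinocytes, was at 5528, 6150 and 5750 CPM after vehicle and 5930, 6524 and 4029 CPM after JAK1i, and it was not called (log2 fold change −0.08, standard error 0.15, adjusted p = 0.656, edgeR). Other keratinocyte genes did differ. Of 14 interfollicular keratinocyte genes 6 fell and 4 rose. Together they took 2.8%, 3.1% and 2.8% of all counts after vehicle and 1.5%, 1.7% and 2.4% after JAK1i. The share of other tissues differed as well. Contractile genes of skeletal muscle, which rodent skin holds as a sheet below the dermis, took 1.16%, 1.39% and 1.51% of all counts after vehicle and 15.4%, 14% and 6.77% after JAK1i. Collagen and dermal matrix genes took 0.873%, 0.638% and 0.795% after vehicle, 0.151% and 0.161% in JAK1i replicates 1 and 2, and 0.686% in replicate 3. In bulk tissue, fewer cells of a type and less RNA per cell cannot be told apart, and the part of muscle RNA in the results below was not tested. Replicate 3 had less muscle RNA and more dermal RNA than the other JAK1i libraries, and its values are set beside theirs.

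**Figure D1:**
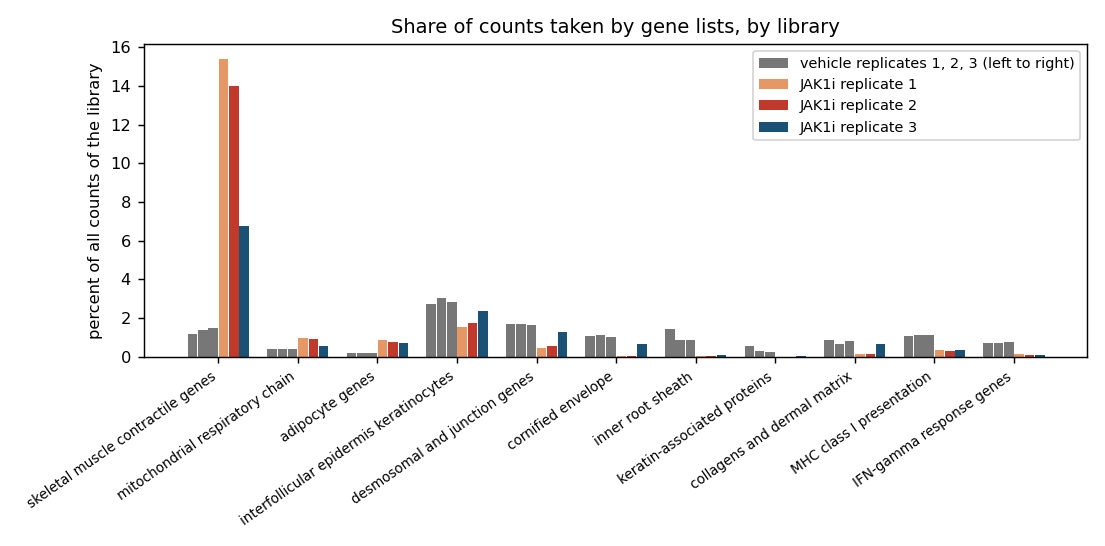
Share of all counts (percent, vertical axis) that 11 gene lists took in each library, with the 3 vehicle libraries in grey and the JAK1i libraries in colour. Skeletal muscle genes took 6.77% to 15.4% after JAK1i and at most 1.51% after vehicle, and collagen genes in JAK1i replicate 3 (0.686%) lay within the vehicle range.

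Most of the transcriptome differed between the groups. Of 17770 genes tested, 11403 (64.2%) had an adjusted p below 0.05 by edgeR, 5114 (28.8%) higher and 6289 (35.4%) lower after JAK1i. With the spread taken from the 6 libraries alone, 8293 of 16818 genes were called. The excess of lower calls depended on the setting. It was smaller under RLE scaling, with 5600 higher and 5805 lower. It was absent without a low-count filter (5698 and 5620) and with a stricter one (5702 and 5371). It was larger with TMM computed without muscle, hair and fat lists (5050 and 6358). At least 2-fold differences were found in 2264 genes that rose (12.7%) and 2999 that fell (16.9%). The libraries of both groups did not overlap in 11138 genes (62.7%). Every count of a gene list below is to be read against these shares. The median log2 fold change over all genes was −0.06, the median absolute value was 0.57, and the median standard error was 0.165. Of the 11403 genes, 8883 (77.9%) had replicate 3 on the vehicle side of the mean of replicates 1 and 2. Genes called lower had median log2 differences from vehicle of −1.16, −1.07 and −0.61 in replicates 1 to 3, and genes called higher 0.96, 0.89 and 0.62. Leaving out replicate 3, the shares were 34.9% higher and 35.3% lower over the same genes, 10490 genes kept their call and direction, 912 lost it, 1975 were gained and 1 changed direction.

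**Figure D2:**
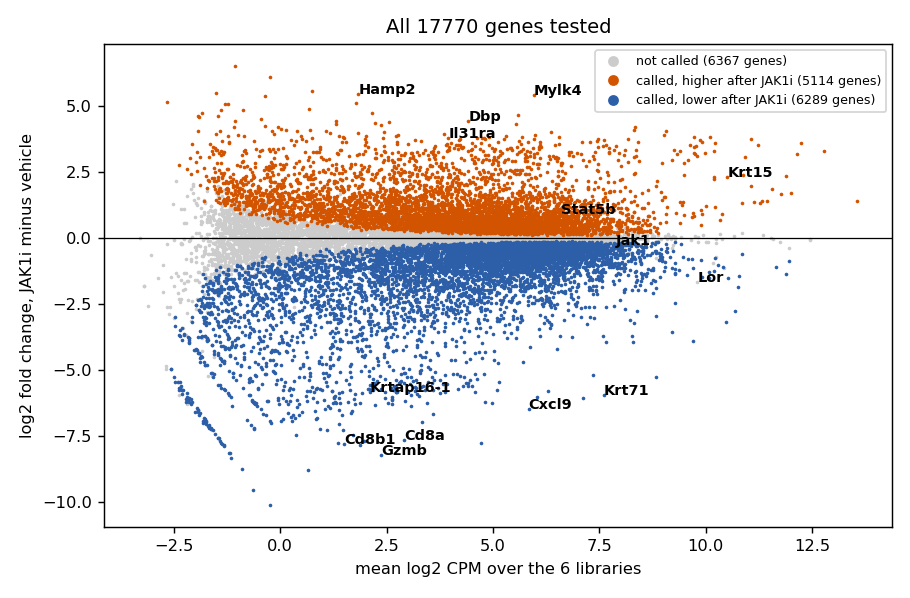
Log2 fold change, JAK1i minus vehicle (vertical axis), against mean log2 CPM over the 6 libraries (horizontal axis) for the 17770 genes tested, with 5114 genes higher in orange, 6289 lower in blue and the rest in grey. Gzmb and Cd8a lie among the deepest falls, while Jak1 itself lies near 0.

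The kinase that the drug targets changed little in its transcript. Jak1 (Entrez ID 16451, chromosome 4, 101151974 to 101265282, GRCm38) was at 247, 262 and 266 CPM after vehicle and 207, 200 and 237 CPM after JAK1i. The groups did not overlap, and the log2 fold change was −0.27 (standard error 0.07, adjusted p = 0.00368, edgeR). Jak2, Jak3 and Tyk2 changed by −0.71, −0.58 and −0.31. With replicate 1 alone, Jak2 kept its call, whereas Jak1, Jak3 and Tyk2 were at −0.19, −0.32 and −0.25 and were not called (adjusted p = 0.0703, 0.102 and 0.061, edgeR). An inhibitor acts on the protein, so that these values check neither the labels nor the dose.

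Among the STAT genes the falls were of unequal size. Of 11 Janus kinase and STAT genes, 9 fell and 1 rose, and the calls of Jak1, Jak3 and Tyk2 rest on more than replicate 1, as given above. Stat2, a transducer of the type I interferon signal, had closely spaced values, with 294, 301 and 290 CPM after vehicle and 54.1, 49.7 and 52.3 CPM after JAK1i. Its log2 fold change was −2.504 (standard error 0.08, adjusted p = 1.4e-14). Stat4, which drives IFN-γ production in T cells, changed by −3.98 and Stat3 by −0.76. Stat5a, a transducer of γc cytokines, was not called (log2 fold change 0.03, standard error 0.09). Stat5b, its close relative, rose from 68.8, 70.5 and 72.7 CPM to 143, 152 and 108 CPM (log2 fold change 0.92, standard error 0.10, adjusted p = 2.54e-07), with replicate 3 the lowest of the JAK1i libraries.

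Inhibitors of JAK-STAT signaling, only some of them named below as STAT targets, fell for the most part. Of 12 such genes, 10 fell and 2 rose, with 9 falls without replicate 3. Ptpn2 and Pias1 changed by −0.42 and −0.26, and by −0.21 and −0.14 with replicate 1 alone, where these genes were not called. Socs1, which blocks JAK activity directly and is an interferon target, was at 37.4, 29.8 and 28.2 CPM after vehicle and 3.63, 4.21 and 7.28 CPM after JAK1i (log2 fold change −2.66, standard error 0.20, adjusted p = 1.77e-09). Usp18, which dampens the type I interferon receptor, changed by −2.22, and Cish, a target of STAT5, by −1.19. Socs3, a target of STAT3, changed by −0.74 and Socs2 by −0.43. Without replicate 3, Socs2 was at −0.22 and was not called (adjusted p = 0.293, edgeR). With replicate 1 alone neither was called, Socs3 being at −0.41 (adjusted p = 0.192) and Socs2 at −0.12 (adjusted p = 0.693). The members that rose were Socs6 and Socs7, by 0.45 and 1.37, the former by 0.72 without replicate 3. Socs7 was at 146, 134 and 95.5 CPM after JAK1i against 46.4 to 50.6 CPM after vehicle, and like Stat5b it was lowest in the replicate with the least muscle RNA.

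Cytokines and receptors of the γc family were lower as a group. Of 11 members tested, 11 fell, the median being −2.87 on the log2 scale, and the other 3 of the 14 listed had too few counts. Il2rb, the β chain that IL-2 and IL-15 share, was at 37.4, 38.0 and 41.6 CPM after vehicle and 1.79, 1.16 and 5.43 CPM after JAK1i, with replicate 3 the highest (log2 fold change −3.81, standard error 0.33, adjusted p = 8.95e-09). Il2rg, the γ chain itself, was at 50.1, 47.8 and 54.5 CPM after vehicle and 9.39, 9.37 and 12.4 CPM after JAK1i, and the 3 JAK1i values were close. The largest fall was that of Il21r, the receptor of IL-21, by −6.27, from 18.9 to 22.4 CPM down to 0.168 to 0.391 CPM. Il4ra, the IL-4 and IL-13 receptor chain, which keratinocytes and leukocytes both carry, was at 318, 333 and 335 CPM after vehicle and 36.9, 38.1 and 54.0 CPM after JAK1i (log2 fold change −2.93, standard error 0.14, adjusted p = 4.93e-12). Il15ra, the α chain for IL-15, moved least, from 35.05 to 35.8 CPM down to 28.7 to 31.1 CPM (log2 fold change −0.25, standard error 0.08, adjusted p = 0.00714, edgeR). Without replicate 3 it was at −0.13 and was not called (adjusted p = 0.19), which leaves 10 of 11 members. Of the ligands, Il2 changed by −2.27 at very low levels, with 0.414, 0.199 and 0.783 CPM after vehicle and 0.0559, 0.0526 and 0.168 CPM after JAK1i. Il7 changed by −0.56. Il15, which holds CD8+ T cells in the skin, was at 7.13, 8.30 and 8.12 CPM after vehicle and 2.35, 4.74 and 7.84 CPM after JAK1i. The third JAK1i library lay within the vehicle range, and the fall of −0.66 in Il15 rests on replicates 1 and 2, and without replicate 3 the value was −1.03.

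IFN-γ fell, while its receptor chains were not called over the 3 JAK1i libraries. Ifng was at 8.97, 7.55 and 7.24 CPM after vehicle and at 0.0559, 0 and 0.168 CPM after JAK1i (log2 fold change −6.64, standard error 0.41, adjusted p = 8.89e-11). The receptor chains Ifngr1 and Ifngr2 had log2 fold changes of 0.14 (standard error 0.09) and 0.19 (standard error 0.10). Without replicate 3, Ifngr2 was called higher at 0.43 (adjusted p = 0.000238, edgeR), and with replicate 1 alone both were, Ifngr1 at 0.39 (adjusted p = 0.00262) and Ifngr2 at 0.50 (adjusted p = 0.000613). Of the type I receptor chains, Ifnar1 changed by −0.57 and Ifnar2 by −1.05.

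A few receptors rose against this trend. Il31ra, a subunit of the receptor for the itch cytokine IL-31, was at 3.91, 3.58 and 4.80 CPM after vehicle and 57.6, 55.6 and 59.4 CPM after JAK1i. All 3 JAK1i libraries were nearly equal, replicate 3 included, and the log2 fold change was 3.81 (standard error 0.24, adjusted p = 1.65e-10). The other subunit, Osmr, fell by 0.57 on the log2 scale, from 87.5 to 94.4 CPM down to 54.1 to 67.8 CPM. Il20ra, a receptor chain for IL-20 and related cytokines of keratinocytes, rose from 8.79, 11.3 and 11.1 CPM to 66.4, 50.6 and 40.5 CPM (log2 fold change 2.33, standard error 0.20, adjusted p = 1.26e-08). Il22ra1, with which it shares ligands, was instead at 67.8, 75.5 and 71.3 CPM after vehicle, 8.10 and 7.998 CPM in JAK1i replicates 1 and 2, and 67.7 CPM in replicate 3. Its call (log2 fold change −1.36, adjusted p = 0.0175) rests on replicates 1 and 2, and without replicate 3 the value is −3.04. Of 15 genes of the gp130 family, which signals through JAK1 and STAT3, 4 rose and 7 fell. Il6st, gp130 itself, and Lifr rose by 0.45 and 0.35, while Lif, Osm and Il27ra changed by −1.86, −2.91 and −3.14.

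**Figure D3:**
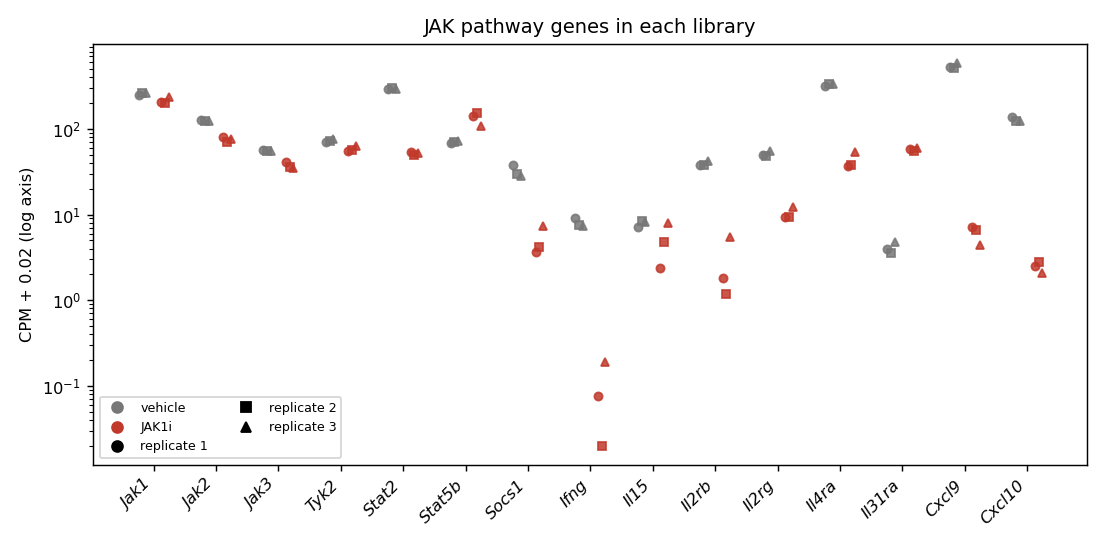
Level of 15 JAK pathway genes in each library, as CPM plus 0.02 on a log axis, with vehicle in grey and JAK1i in red and a marker shape for each replicate number. Il31ra and Stat5b lie above vehicle in all 3 JAK1i libraries, Jak1 lies just below it, and Ifng was at 0 in JAK1i replicate 2.

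Genes that interferons induce fell throughout both lists. Of 30 IFN-γ response genes, 30 fell, with a median of −3.01, and of 28 type I interferon response genes, 28 fell, with a median of −2.61. In contrast to most genes called, the replicate 3 median was the lowest of the 3 for IFN-γ, and for type I interferon it lay close to that of replicate 1. The list medians in replicates 1 to 3 were −2.39, −3.35 and −3.43 for IFN-γ and −2.61, −2.79 and −2.55 for type I interferon. Cxcl9 (chromosome 5, 92321331 to 92328079), an IFN-γ-induced chemokine that draws T cells, was at 529, 517 and 586 CPM after vehicle and 7.21, 6.58 and 4.37 CPM after JAK1i, with replicate 3 the lowest (log2 fold change −6.49, standard error 0.27, adjusted p = 4.73e-13). Cxcl11 changed by −6.97. Isg15, an interferon-induced protein that is attached to others like ubiquitin, was at 114, 108 and 95.2 CPM after vehicle and 3.63, 3.10 and 5.49 CPM after JAK1i (log2 fold change −4.70, standard error 0.22, adjusted p = 2.31e-12). The cytosolic RNA sensors Ifih1 and Ddx58 (RIG-I) changed by −2.04 and −1.95 with standard errors of 0.09 and 0.08. Of 9 interferon regulatory factors 7 fell, among them Irf1, Irf7 and Irf9, by −2.25, −3.45 and −1.69. The IFN-γ median was nearest to 0 in the library with the most muscle counts (replicate 1, 15.4%) and lowest in that with the least (replicate 3, 6.77%), and the part of muscle RNA was not tested.

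The promoters of these genes are shown because interferon-activated complexes bind a known element in them. The 250 bases before the gene start were taken from RefSeq (GRCm38.p6) and searched on both strands for GAAA followed by any 2 bases and again GAAA, the core of the interferon-stimulated response element, and for TTCNNNGAA, the core that STAT dimers bind. Of the IFN-γ list, 20 genes had a promoter sequence, and 11 (55%) held the first motif and 10 (50%) the second. Of the type I list, 20 had one, and 9 (45%) held the first and 4 (20%) the second. Over all 27025 genes with a promoter, the shares were 3.46% and 8.13%, over the genes called lower 4.57% and 7.58%, and over those called higher 2.31% and 7.01%. A match is a string of letters and no proof of binding. Below, a chemokine, a ubiquitin-like protein, an antiviral enzyme, a GTPase and a feedback inhibitor each stand for their class, and capitals mark matches to the first motif on either strand. The windows are chr5:92348890-92349139, minus strand, for Cxcl10, chr4:156200819-156201068, minus strand, for Isg15, chr5:120777660-120777909, minus strand, for Oas3, chr3:142496684-142496933, plus strand, for Gbp5 and chr16:10785537-10785786, minus strand, for Socs1.
Cxcl10: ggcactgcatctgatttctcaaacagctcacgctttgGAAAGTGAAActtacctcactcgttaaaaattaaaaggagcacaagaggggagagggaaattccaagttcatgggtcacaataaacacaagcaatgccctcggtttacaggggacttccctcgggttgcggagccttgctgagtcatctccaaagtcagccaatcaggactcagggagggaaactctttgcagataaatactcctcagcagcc
Isg15: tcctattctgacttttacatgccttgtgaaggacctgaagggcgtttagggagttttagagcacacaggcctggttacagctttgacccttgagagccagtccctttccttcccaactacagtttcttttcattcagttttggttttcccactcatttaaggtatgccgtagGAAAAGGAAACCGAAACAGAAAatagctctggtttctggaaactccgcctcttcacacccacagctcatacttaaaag
Oas3: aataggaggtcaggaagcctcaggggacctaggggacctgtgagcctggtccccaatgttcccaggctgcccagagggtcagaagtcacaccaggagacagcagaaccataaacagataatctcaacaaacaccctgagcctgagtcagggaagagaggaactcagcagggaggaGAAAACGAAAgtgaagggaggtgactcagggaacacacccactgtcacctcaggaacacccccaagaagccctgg
Gbp5: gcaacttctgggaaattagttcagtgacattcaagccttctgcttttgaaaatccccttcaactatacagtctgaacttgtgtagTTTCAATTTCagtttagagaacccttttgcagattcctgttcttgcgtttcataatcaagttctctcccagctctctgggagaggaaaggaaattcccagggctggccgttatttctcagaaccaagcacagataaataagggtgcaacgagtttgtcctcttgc
Socs1: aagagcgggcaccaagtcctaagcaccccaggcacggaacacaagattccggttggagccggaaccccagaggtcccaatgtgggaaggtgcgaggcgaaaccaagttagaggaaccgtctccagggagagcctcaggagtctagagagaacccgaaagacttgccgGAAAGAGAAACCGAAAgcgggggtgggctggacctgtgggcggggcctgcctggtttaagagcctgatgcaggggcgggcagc

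In Isg15 and Socs1 overlapping matches run together, and in Gbp5 the match reads on the other strand. Cxcl10, whose match lies farthest from the start of the 5, was at 139, 124 and 123 CPM after vehicle and 2.52, 2.74 and 2.07 CPM after JAK1i. Oas3, which makes the activator of an antiviral RNase, was at 87.2, 85.6 and 81.0 CPM after vehicle and 3.52, 4.16 and 2.58 CPM after JAK1i, and Gbp5, a GTPase of host defence, at 98.1, 84.6 and 90.3 CPM and 8.998, 4.89 and 7.06 CPM. Their log2 fold changes were −5.71, −4.62 and −3.71, with standard errors of 0.20, 0.26 and 0.21. In all 3 genes the groups lay far apart.

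Both routes of antigen presentation were lower, but not with the same spread. All 20 genes of MHC class I presentation fell, with a median of −1.55 and replicate medians of −1.31, −1.71 and −1.58. Tap1, a subunit of the peptide pump, was at 523, 558 and 543 CPM after vehicle and 144, 152 and 127 CPM after JAK1i, with replicate 3 the lowest (log2 fold change −1.94, standard error 0.10, adjusted p = 1.45e-11). Nlrc5, the class I transactivator, changed by −1.73. Of 12 class II genes 11 fell, with replicate medians of −3.89, −3.84 and −1.35. Ciita, the class II transactivator, was at 126, 115 and 136 CPM after vehicle, 7.60 and 6.10 CPM in JAK1i replicates 1 and 2 and 31.9 CPM in replicate 3. Class I genes, which nearly all cells express, had similar levels in the 3 JAK1i libraries, while class II genes, which antigen-presenting cells express, were least reduced in replicate 3. C3H/HeJ mice carry MHC alleles that differ from the reference genome, so that reads of individual H2 genes may be lost.

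CD8+ T cell transcripts were among the deepest falls of the whole table. Cd8a (Entrez ID 12525, chromosome 6) was at 97.5, 111 and 122 CPM after vehicle and 1.01, 0.105 and 0.504 CPM after JAK1i (log2 fold change −7.68, standard error 0.40, adjusted p = 7.89e-12). Gzmb, a protease that cytotoxic cells release into their targets, was at 84.5, 80.0 and 70.6 CPM after vehicle and 0.335, 0.316 and 0.112 CPM after JAK1i (log2 fold change −8.22, standard error 0.38, adjusted p = 2.04e-12). Replicate 3 was not set apart in either gene. Of 22 T cell markers 21 fell, with replicate medians of −2.84, −3.39 and −2.03, and of 21 cytotoxic effectors 20 fell. The cytotoxic gene that rose was Gzmm, from 1.32 to 1.61 CPM up to 3.47 to 5.98 CPM. Trac, the constant part of the T cell receptor α chain, changed by −5.22, but Cd3e was at 18.9, 26.7 and 28.8 CPM after vehicle and 4.81, 2.74 and 9.64 CPM after JAK1i, a smaller change of −2.12. Cd4 changed by −0.55, and without replicate 3 it was at −0.38 and was not called (adjusted p = 0.0667, edgeR). Of 11 genes of resident memory T cells 10 fell, with replicate medians of −3.75, −3.996 and −1.33, among them Itgae (CD103), which holds T cells in epithelium, by −3.996, and Cxcr6 by −4.43. Cd274, which encodes the ligand PD-L1 and is itself an IFN-γ target, changed by −2.43. Of 9 listed ligands that CD8+ T cells recognise through NKG2D, 5 were among the genes counted and 4 had enough counts. H60c fell, from 38.7, 43.2 and 40.9 CPM to 20.7, 21.0 and 20.9 CPM (log2 fold change −0.97, standard error 0.11, adjusted p = 2.2e-07, edgeR). The other 3 tested were not called. Without replicate 3, 1 member was called higher and 1 lower, and the list median was 0.24.

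Chemokines fell on the same scale. Of 17 CXC chemokines and receptors 15 fell, and of 29 CC members 24 fell. Ccl5, made by activated T cells, was at 56.6, 68.9 and 60.9 CPM after vehicle and 0.671, 0.842 and 1.01 CPM after JAK1i (log2 fold change −6.20, standard error 0.26, adjusted p = 5.36e-13). The monocyte attractant Ccl2 changed by −5.06. Genes that TSLP, IL-4 and IL-13 induce or encode fell in 11 of 13 cases, with Il13 at 5.15, 2.83 and 3.72 CPM after vehicle and 0.112, 0.210 and 0.392 CPM after JAK1i. Tslp itself, an alarm signal of keratinocytes, rose from 1.39 to 1.93 CPM up to 2.74 to 4.82 CPM (log2 fold change 1.11, adjusted p = 0.00147, edgeR).

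Macrophage genes were lower mainly in replicates 1 and 2. Of 20 macrophage markers 15 fell, with replicate medians of −2.56, −2.25 and −0.63. C1qa, a complement subunit that tissue macrophages make, was at 207, 173 and 219 CPM after vehicle, 20.8 and 18.7 CPM in JAK1i replicates 1 and 2 and 78.7 CPM in replicate 3. Adgre1 (F4/80) was at 44.5, 43.3 and 49.9 CPM after vehicle and at 4.97, 4.998 and 32.4 CPM after JAK1i. In contrast, Fcgr1, an Fc receptor that IFN-γ induces, stayed low in replicate 3 at 2.86 CPM, against 21.1 to 27.3 CPM after vehicle. Cd207 (langerin), the defining marker of Langerhans cells, was at 3.80, 2.74 and 23.0 CPM, and replicate 3 lay within the vehicle values of 15.4 to 24.1 CPM. In other myeloid lists replicate 3 was low as well. Of 16 dendritic and Langerhans cell markers 11 fell, with replicate medians of −2.84, −2.77 and −1.75, and of 12 neutrophil markers 6 fell, with replicate medians of −2.07, −2.12 and −1.86. Of 15 B cell and plasma cell genes 12 fell, with replicate medians of −2.59, −2.61 and −1.23. The immunoglobulin genes varied widely within vehicle, with Igha at 73.6, 48.6 and 155 CPM, and were at 0.615, 0.789 and 3.70 CPM after JAK1i (log2 fold change −5.77, standard error 1.12, adjusted p = 0.000145, edgeR).

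**Figure D4:**
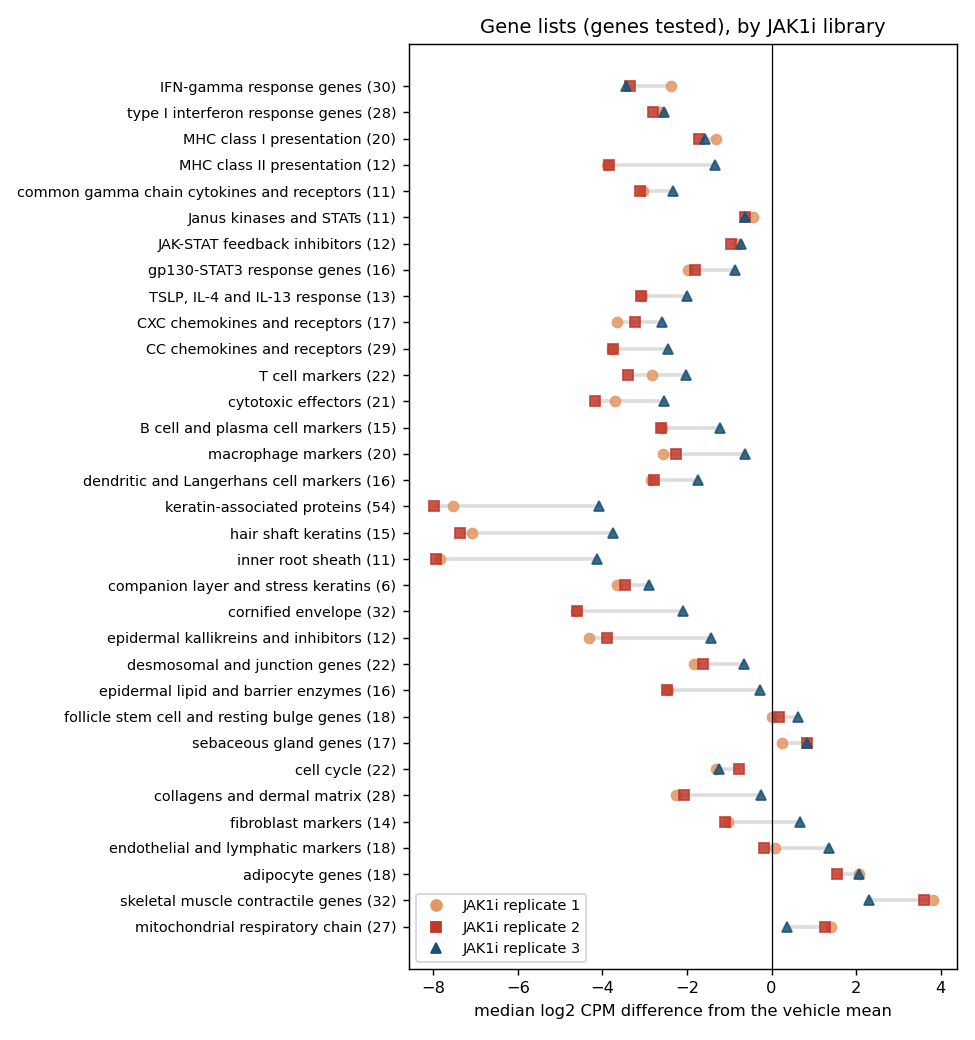
Median log2 CPM difference from the vehicle mean (horizontal axis) over the tested genes of 33 lists, with a marker for each JAK1i library and the number of genes in brackets. The type I interferon medians span −2.79 to −2.55 and the MHC class I medians −1.71 to −1.31, the IFN-γ median of replicate 1 (−2.39) lies nearer to 0 than the other JAK1i libraries, and hair, epidermal differentiation, collagen and macrophage medians of replicate 3 lie nearer to 0.

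Structural genes of the hair were at low levels after JAK1i. The paper, in contrast, reports robust regrowth of hair in mice given INCB039110 and hair loss in those given vehicle. Visible hair and transcripts at the time of sampling are unlike measures, and the cause of the difference was not tested. All 15 hair shaft keratins and all 54 keratin-associated proteins tested fell, with medians of −5.25 and −5.77 (−5.76 for the latter when its member without JAK1i counts enters at its bound). Replicate medians were −7.09, −7.37 and −3.76 for the hair shaft keratins and −7.54, −7.99 and −4.09 for the keratin-associated proteins. Krt71, a keratin of the inner root sheath that surrounds the growing hair, was at 3592, 2169 and 2148 CPM after vehicle, 5.48 and 4.95 CPM in JAK1i replicates 1 and 2, and 117 CPM in replicate 3. No JAK1i library came near the vehicle range. Of 22 matrix and anagen regulators 19 fell, and of 22 cell cycle genes 19 fell, with replicate medians of −1.32, −0.78 and −1.25. Near-identical copies are common among keratin-associated, Lce, Gbp and Tgtp genes, and reads may be split between them.

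Some genes of the resting follicle were higher in the same libraries, within a mixed list. Of 18 stem cell and bulge genes, 9 rose and 6 fell, with replicate medians of 0.0087, 0.18 and 0.62. Krt15, a keratin of bulge stem cells and basal cells, was at 588, 670 and 711 CPM after vehicle and 3275, 3510 and 2998 CPM after JAK1i (log2 fold change 2.31, standard error 0.21, adjusted p = 1.46e-08). Fgf18, which the resting bulge secretes and which holds the follicle in telogen, was at 1.56, 0.497 and 1.47 CPM after vehicle and 23.5, 28.5 and 18.3 CPM after JAK1i, and Krt24, another bulge keratin, at 1.01, 0.895 and 1.08 CPM and 14.7, 22.1 and 24.7 CPM. Their log2 fold changes were 4.30 and 4.36, and the groups did not overlap. Sox9, a regulator of the same stem cells, changed by −1.02. Axin2, a general target of WNT signaling, rose from 34.2 to 36.2 CPM up to 53.6 to 70.4 CPM (log2 fold change 0.87, standard error 0.09, adjusted p = 8.24e-08).

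The surface epidermis also differed between the JAK1i libraries themselves. Lor, which encodes loricrin, a main protein of the cornified envelope, was at 2925, 3473 and 3135 CPM after vehicle, 71.9 and 76.7 CPM in JAK1i replicates 1 and 2, and 2891 CPM in replicate 3. It was not called over all 3 (log2 fold change −1.65, adjusted p = 0.0798), and without replicate 3 the value was −5.30. Krt10, a keratin of suprabasal cells, was at 6931, 8279 and 7357 CPM after vehicle and 1035, 1078 and 6610 CPM after JAK1i. The replicate 3 values of Krt23, Lypd5 and Dsc1 were 251, 110 and 284 CPM, against 2.57 to 7.998 CPM in replicates 1 and 2. Not all of this layer followed. Klk6, a protease raised in inflamed skin, was at 401, 512 and 421 CPM after vehicle and stayed at 1.06, 0.631 and 4.43 CPM in the 3 JAK1i libraries. Krt6a, which keratinocytes make under stress and in the companion layer, was at 2081, 2102 and 1862 CPM after vehicle and 165, 164 and 187 CPM after JAK1i, with no gap between the replicates. Gjb2, a gap junction protein, changed by −6.02 and was at 5.70, 4.58 and 16.3 CPM after JAK1i. Of 32 cornified envelope genes 28 fell, with replicate medians of −4.62, −4.59 and −2.09.

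Fat and muscle genes rose. The fat list median of replicate 3 lay between those of replicates 1 and 2, while single genes such as Adipoq varied between the libraries. Of 18 adipocyte genes 17 rose and 0 fell, with replicate medians of 2.08, 1.54 and 2.06. Adipoq, which encodes the fat cell hormone adiponectin, was at 31.6, 29.5 and 41.1 CPM after vehicle and 163, 110 and 312 CPM after JAK1i. Of 32 contractile genes of skeletal muscle 28 rose, with replicate medians of 3.81, 3.60 and 2.30. Acta1, skeletal actin, was at 1199, 1584 and 1612 CPM after vehicle and 23370, 22550 and 7931 CPM after JAK1i. Myh4, the fast myosin heavy chain, did not keep this order, with 2330, 739 and 7927 CPM after JAK1i and 1620 CPM in vehicle replicate 3, so that the groups overlapped, and it was not called without replicate 3 (log2 fold change 1.10, adjusted p = 0.272, edgeR). All 27 respiratory chain genes rose, with replicate medians of 1.41, 1.27 and 0.36, and 9 of 11 muscle regulators rose. Endothelial genes rose in 8 and fell in 4 of 18 cases, with replicate medians of 0.07, −0.18 and 1.36. Collagen and matrix genes fell in 22 of 28 cases, with medians of −2.27, −2.08 and −0.24, and Col1a1 was at 94.2, 102 and 786 CPM, the last within the vehicle values of 781 to 1250 CPM. Without replicate 3, 27 of the 28 fell.

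**Figure D5:**
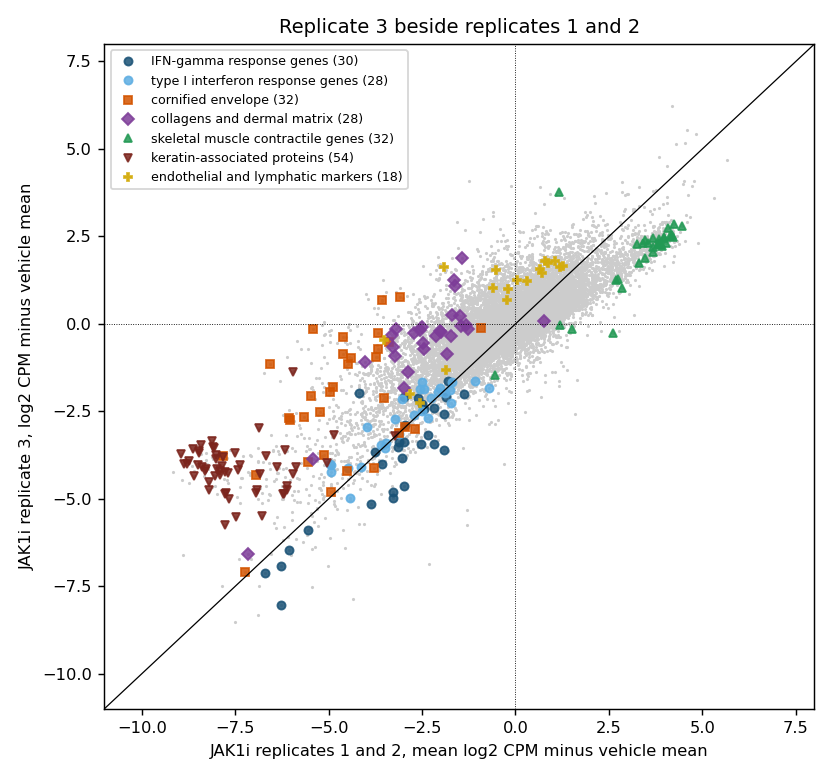
Log2 CPM minus the vehicle mean in JAK1i replicate 3 (vertical axis) against the mean of replicates 1 and 2 (horizontal axis) for all genes tested (grey) and 7 lists (colours), with the line of equal values. Interferon response genes lie on both sides of the line, with Cxcl9 below it and Ciita and Socs1 above it. Cornified envelope, collagen and keratin-associated genes lie mostly above it and most muscle genes below it.

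The genes that set replicate 3 apart most were picked as those in which replicates 1 and 2 were within 1 on the log2 scale, and their differences are a description without a test. In all, 2630 genes were more than 1 above the mean of replicates 1 and 2 and 896 more than 1 below. Next to Lor, Rptn, Dsc1, Car6 and Prr9, genes of the cornifying epidermis for the most part, stood Ifitm6, which was at 0.503 and 0.737 CPM in replicates 1 and 2, 28.2 CPM in replicate 3 and 1.33 to 2.10 CPM after vehicle. Its call as higher thus comes from 1 library. On the other side, Csrp3, a protein of the muscle Z disc, was at 330 and 384 CPM in replicates 1 and 2 and 65.1 CPM in replicate 3. Dbp, an output gene of the circadian clock, was at 168, 146 and 26.5 CPM after JAK1i and 5.07 to 5.43 CPM after vehicle. Of 18 clock genes 11 rose and 4 fell. The hour at which skin was taken is not given in the sources used here.

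The 12 largest rises by the naming rule held further genes outside these groups. Hamp2, a relative of the iron hormone hepcidin, was at 0.598, 0.596 and 0.489 CPM after vehicle and 7.54, 18.6 and 49.5 CPM after JAK1i (log2 fold change 5.47, standard error 0.64, adjusted p = 4.33e-07). Wfdc3 was at 26.6, 23.8 and 15.5 CPM after JAK1i and at most 0.895 CPM after vehicle. Mylk4 and Mstn (myostatin, a brake on muscle growth) are muscle genes and changed by 5.43 and 4.33. Among the largest falls, Saa3, an acute phase protein, changed by −7.76, Mmp13, a collagenase, by −7.48, and Olr1, a receptor for oxidised lipoprotein, by −7.28. Of 16 genes that gp130 and STAT3 induce, 12 fell, with replicate medians of −1.97, −1.82 and −0.87, and with Lcn2 (lipocalin 2) at 55.2, 63.7 and 51.4 CPM after vehicle and 1.51, 1.26 and 2.07 CPM after JAK1i.

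To see where JAK1i stood apart from other treatments, it was compared with the mean of JAK3i (PF-06651600), ruxolitinib (an inhibitor of JAK1 and JAK2) and tofacitinib (a pan-JAK inhibitor), with 3 libraries each. The methods give a systemic dose for JAK1i unlike that of the others, whereas the labels give the same topical strength for each inhibitor. Here 7147 genes (40.2%) were called, 3409 (19.2%) higher and 3738 (21%) lower after JAK1i. The split turned under other settings, to 4302 higher and 3278 lower with RLE scaling, 4453 and 3421 by DESeq2, and 4169 and 3030 without a low-count filter. Without JAK1i replicate 3, the shares were 29.7% higher and 26.6% lower. Mast cell and basophil genes were lower after JAK1i in 11 of 11 cases, with or without replicate 3. Mcpt4, a mast cell protease, was at 43.4, 39.1 and 61.7 CPM after JAK1i and at means of 216, 147 and 259 CPM after JAK3i, ruxolitinib and tofacitinib, with 34.5 to 46.4 CPM after vehicle (log2 difference −2.07, standard error 0.21, adjusted p = 2.15e-06, edgeR). The JAK1i values overlapped those of vehicle, and the means of the other treatments lay above both. The libraries of these treatments also held other shares of muscle and dermal RNA, whose part in this difference was not tested.

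Macrophage genes were lower after JAK1i in 17 of 20 cases, and type I interferon response genes in 26 of 28, with medians of −1.87 and −0.95, and 24 of the latter without replicate 3. All 11 γc family genes were lower, with a median of −1.12, and 10 of them without replicate 3. Il21r was at means of 2.15, 2.10 and 1.15 CPM after the other treatments, against 0.168 to 0.391 CPM after JAK1i (log2 difference −2.73, standard error 0.33, adjusted p = 8.38e-06, edgeR). Il31ra went further up after JAK1i, with means of 17.6, 38.5 and 35.8 CPM after the others (log2 difference 0.99, standard error 0.16, adjusted p = 0.000101). Muscle contractile genes were higher in 27 of 32 cases. The inner root sheath and hair shaft genes, higher in 10 of 11 and 9 of 15 cases, rest on replicate 3. Without it the counts were 1 and 0, and Krt71 was at 117 CPM in that library against means of 3.71 to 7.08 CPM after the others. Direct tests against each of the 3 treatments were not made.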

How the data were processed

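The files hold 24 libraries of mouse skin. Raw counts per Entrez gene were deposited by the authors. The submitters' notes name Subread and DESeq2 1.18.1, and the build is mm10 (GRCm38), while aligner settings, strand and annotation are not given in the sources used here. The second table, of score values for 7 genes deposited by the authors, served only to check library names. The count table holds 27179 genes, of which 26 symbols turned into dates were restored by Entrez ID, and 855 rows have no symbol (at most 0.486% of counts in the 6 libraries). RefSeq GRCm38.p6 gave positions and promoters.

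Counts were fitted in edgeR 4.0.16 (R 4.3.3, limma 3.58.1) with the quasi-likelihood test, 7 groups and 24 libraries, TMM scaling and filterByExpr (minimum count 10, minimum total 15), which left 17770 genes. P-values were adjusted by Benjamini and Hochberg over these, with calls below 0.05. CPM values are scaled by TMM, log2 CPM used a prior count of 2, and the biological coefficient of variation was 0.17. A standard error is the log2 fold change divided by the root of the F statistic. Where JAK1i had no counts, the bound is 3 counts over the group. The test was checked on simulated data in which few genes differed and all libraries shared the fitted spread. That check covers neither the scaling at the tissue shares seen here nor the spread of JAK1i replicate 3.

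Members and the 57 gene lists were chosen with earlier results of these data known. Named genes are the 12 largest rises and falls (called, mean log2 CPM of at least 1, groups not overlapping, at most 3 of a list), all members of 6 JAK-related lists, up to 4 members of each other list by smallest p, the 8 genes most above and below in replicate 3, the 8 most different from the other treatments in each direction, and defining markers. Promoter genes were added for their role. Alternatives were DESeq2 1.42.0, RLE scaling, TMM without tissue lists, other filters, fewer libraries, a replicate block, and leaving out each library. JAK1i replicate 1 alone was added after seeing the data. Some single genes are not reported here.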

Additional observations from a re-analysis of the deposited data

How the results depend on the processing

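Of 5012 values of 315 named genes under the alternatives, 4820 kept their side of the threshold, 145 lost the call, 45 gained it and 2 reversed. Direction was compared only where either fit called the gene, so that uncalled values of changed sign count among the 4820. The reversed values were those of Ifitm6, at −1.25 without JAK1i replicate 3 (to 3.20 without replicate 1) and −1.54 with replicate 1 alone, the second setting chosen after seeing the data. Against the 3 other treatments, Krt72 reversed to −0.23 without JAK1i replicate 3 (to 4.22 without replicate 2) and Krt33b to −0.10 with replicate 1 alone. The count of calls was 11494 by DESeq2 (5653 higher, 5841 lower), 11405 with RLE scaling, 11408 with TMM computed without muscle, hair and fat lists, 11318 without a filter, 11073 with a stricter one and 11383 for replicate 1 alone. Fitting only the 6 libraries gave 8293 calls, 4073 of them lower. Leaving out 1 library gave 10338 to 12543 calls (4686 to 6233 higher, 4996 to 6310 lower), and for the comparison with the 3 treatments 5299 to 10048 (3157 to 5290 higher, 2079 to 4758 lower), the largest without JAK1i replicate 3. Other scaling moved the median of all genes by at most 0.06, and other filters or left-out libraries by at most 0.09. Deviations from the group mean correlated at −0.09, 0.11 and −0.02 between same-numbered JAK1i and vehicle libraries, and at −0.10 to 0.11 between the other pairs. With 3 libraries per group, these values cannot decide whether the replicate numbers paired the samples. With the number as a replicate block, the 6 libraries gave 6818 calls (3293 higher, 3525 lower), and the 18 posttreatment libraries 11012, against 11079 without the block. Of 57 list medians 4 changed sign in some setting, those of NKG2D ligands, γδ and innate lymphoid, mast cell and fibroblast genes. The cause was not tested. At this depth and spread, a gene at 0 to 3 counts after JAK1i has only a bound on its fall, and 3 libraries per group limit each estimate. Without replicate 3, whose name differs between the tables, the medians of keratin-associated, inner root sheath and hair shaft genes moved most, to −8.65, −7.97 and −7.69.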

Other observations

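Nerve and Schwann cell genes, which the text above does not describe, were higher in 8 and lower in 1 of 12 cases, with replicate medians of 0.69, 0.74 and 1.66. The replicate 3 median was the highest. Egr2, counted with these and with the immediate early genes, went the other way, from 202, 233 and 216 CPM to 19.9, 31.5 and 62.1 CPM (log2 fold change −2.52, standard error 0.28, adjusted p = 2.66e-07, edgeR).

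Sebaceous gland genes rose in 10 and fell in 2 of 17 cases. Scd3, a desaturase of sebocytes, was at 18.9, 22.5 and 24.7 CPM after vehicle and 133, 210 and 282 CPM after JAK1i, whereas Awat1, a wax synthase of the gland, was at 10.4, 12.6 and 13.7 CPM and 9.39, 12.4 and 14.4 CPM, with overlapping groups. Lipid and barrier enzymes of the epidermis fell in 14 of 16 cases, with replicate medians of −2.45, −2.48 and −0.28. Complement genes fell in 13 and rose in 3 of 21 cases, with replicate medians of −1.83, −1.95 and −0.43, and Cd55, which shields cells from complement, was among the latter, from 34.7, 32.2 and 37.1 CPM to 116, 104 and 91.9 CPM.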
